A study of Homo sapiens with 6 samples.

Results

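The mitochondrial genome of human cells is a small circular chromosome that lies outside the nucleus, and its genes carry symbols that start with MT-. All genes with such a symbol were taken, which gave 37 of the 67140 genes in the count table. They are 13 mRNAs, 2 rRNAs and 22 tRNAs, spread over a chromosome of 16569 bases in the hg38 build. Of the 37, 36 were abundant enough to be tested, and the one left out was MT-TS1, the tRNA gene for serine with the UCN codons, whose counts lay between 5 and 10 in every sample.

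The cells were KYSE150, an established line of human esophageal squamous cell carcinoma (ESCC). Lentiviral lines carried either a control short hairpin RNA (shCtrl, 3 samples) or a hairpin against the long non-coding RNA AC007128.1 (shAC007128.1, 3 samples). Per the published methods, the stable lines were selected with puromycin. Poly-A RNA was sequenced from all 6, so the comparison asks how the transcripts of the mitochondrial genome differed after the knockdown. The labels do not say that samples of a group were separate cultures, so the p-values below measure the spread between these samples, which may be technical. One hairpin and one control line were used, and an effect of the knockdown and a difference between the selected lines cannot be told apart.

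Mitochondrial DNA is transcribed from both strands into long precursors, in which tRNAs sit between most mRNAs and rRNAs. Enzymes cut the tRNAs out, and this releases the mRNAs and rRNAs on either side. The mRNAs encode core subunits of the respiratory chain and of ATP synthase, the rRNAs build the mitochondrial ribosome, and every other protein of the organelle is encoded in the nucleus. Because most mRNAs and the rRNAs of mitochondria carry A tails, they are abundant in poly-A libraries, whereas tRNAs are short, folded and mostly lost.

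Total counts ranged from 65140326 to 78610457 in shCtrl and from 55764405 to 60158244 in shAC007128.1. AC007128.1 itself (ENSG00000229970) had 69, 33 and 53 counts in shCtrl and 18, 37 and 15 in shAC007128.1. Its log2 fold change was -0.77 ± 0.51 (SE) with an adjusted p of 0.271, and the groups overlapped, so the knockdown was not detectable in these counts at this depth. The paper reports by qPCR that the hairpin lowered AC007128.1. All 10 squamous markers were tested, and their summed level was 3241 to 3279 CPM (counts per 1000000 library counts) in shCtrl against 4357 to 4968 in shAC007128.1. The summed fibroblast markers reached 23.9 CPM at most, the leukocyte markers 4.97, and the endothelial markers 3.11. Fewer mitochondria per cell and less RNA per mitochondrion cannot be told apart in such bulk samples, nor can a change in part of the cells.

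Several results below turn on short stretches of the chromosome, which are shown here as GENCODE release 44 places them on hg38, 5′ to 3′ on the strand named. The first set holds the 4 neighbouring tRNA genes for alanine, asparagine, cysteine and tyrosine, all on the minus strand, which moved together. They are MT-TA at chrM:5587-5655, MT-TN at chrM:5657-5729, MT-TC at chrM:5761-5826 and MT-TY at chrM:5826-5891.
MT-TA: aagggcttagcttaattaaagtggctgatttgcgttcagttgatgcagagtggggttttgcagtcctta
MT-TN: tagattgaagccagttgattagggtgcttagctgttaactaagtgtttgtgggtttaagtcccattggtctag
MT-TC: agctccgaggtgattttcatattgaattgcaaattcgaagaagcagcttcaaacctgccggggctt
MT-TY: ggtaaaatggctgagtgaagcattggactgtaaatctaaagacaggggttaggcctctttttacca
MT-TN and MT-TC are separated by a non-coding stretch, chrM:5730-5760 on the minus strand, that is known as the origin of light-strand replication. It holds an inverted repeat, whose arms of 8 bases are in capitals.
Between MT-TC and MT-TN: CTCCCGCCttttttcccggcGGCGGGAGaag

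The next sequence, chrM:3210-3325 on the plus strand, spans the end of MT-RNR2, the whole of MT-TL1 in capitals and the start of MT-ND1. It is shown because the rRNA on one side and the mRNA on the other moved in opposite directions.
MT-RNR2, MT-TL1 and MT-ND1: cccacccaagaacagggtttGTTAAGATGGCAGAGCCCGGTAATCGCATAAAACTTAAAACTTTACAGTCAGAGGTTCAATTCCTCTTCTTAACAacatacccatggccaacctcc
MT-ATP8 and MT-ATP6 lie on one mRNA and their reading frames overlap. The stretch chrM:8507-8592 on the plus strand is given with the 46 shared bases in capitals, since MT-ATP6 showed the largest rise among the members and MT-ATP8 a smaller difference.
MT-ATP8 and MT-ATP6: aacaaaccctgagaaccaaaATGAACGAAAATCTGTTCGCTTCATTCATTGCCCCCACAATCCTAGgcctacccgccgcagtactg
The last stretch, chrM:4263-4469, holds the 3 tRNA genes called higher, printed on the plus strand. MT-TI and MT-TM flank MT-TQ, which lies on the minus strand and is in capitals. MT-TI and MT-TQ share 3 bases.
MT-TI, MT-TQ and MT-TM: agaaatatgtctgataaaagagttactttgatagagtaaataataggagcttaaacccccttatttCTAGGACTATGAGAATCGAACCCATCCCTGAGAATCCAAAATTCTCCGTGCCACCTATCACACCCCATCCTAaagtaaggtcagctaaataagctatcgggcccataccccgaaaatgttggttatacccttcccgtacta

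The share of all counts held by the 37 genes together was 10.1%, 10.2% and 9.69% in the shCtrl samples and 7.8%, 7.68% and 9.72% in the shAC007128.1 samples. The groups overlapped because the third shAC007128.1 sample lay above the lowest control, and the difference of -1.59 percentage points had p = 0.2 by a two-sided exact permutation test. With 3 against 3 that test cannot go below 0.1, and after Benjamini-Hochberg adjustment over the 17 shares compared it cannot go below 0.142.

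The 3 classes of transcript behaved differently. The 2 rRNAs held 2.77%, 2.73% and 2.61% of all counts in shCtrl and 0.698%, 0.655% and 0.792% in shAC007128.1, so that every knockdown sample was far below every control (p = 0.1, exact permutation test, adjusted p = 0.142). The 13 mRNAs held 7.21%, 7.37% and 6.99% against 7.06%, 6.99% and 8.9%, which overlapped (p = 0.9, exact permutation test). The 22 tRNAs held 0.0977%, 0.0957% and 0.0953% against 0.0441%, 0.04% and 0.0314%, again without overlap (p = 0.1, exact permutation test). This fall lay in MT-TA, MT-TN, MT-TC and MT-TY, with means of 0.0903% in shCtrl and 0.031% in shAC007128.1. The other 18 tRNAs were higher without overlap, with means of 0.00591% and 0.00746%. Within the mitochondrial counts, the share of mRNAs was 72.0% ± 0.383 (SD, n = 3) in shCtrl and 91.0% ± 0.522 in shAC007128.1, while the share of rRNAs was 27.1% ± 0.373 and 8.54% ± 0.401.

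**Figure D1:**
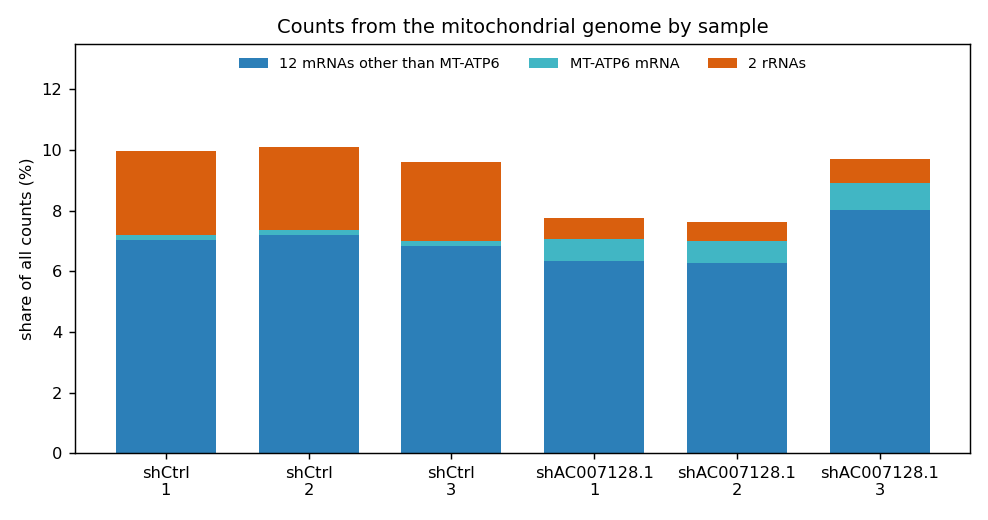
Share of all counts (%, vertical axis from 0) held by mitochondrial transcripts in each of the 6 samples, as stacked bars for the 12 mRNAs other than MT-ATP6, the MT-ATP6 mRNA and the 2 rRNAs. The rRNA segment is 2.61% to 2.77% in the 3 shCtrl samples and 0.655% to 0.792% in the 3 shAC007128.1 samples, and the third shAC007128.1 sample has the tallest mRNA segments.

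Of the 36 genes tested, 4 were called higher and 6 lower by edgeR's quasi-likelihood test, which required both an adjusted p no greater than 0.05 and at least a 2-fold change. These are 11.1% and 16.7% of the members tested, where 5.57% and 10.1% of all 19254 genes tested were called higher and lower (15.7% in either direction). The genes called higher were MT-ATP6, MT-TI, MT-TQ and MT-TM, and those called lower were MT-RNR1, MT-RNR2, MT-TA, MT-TN, MT-TC and MT-TY. By adjusted p alone, 12 were higher (33.3%, against 21% of all genes) and 6 lower (16.7%, against 19.8%), while 40.8% of all genes passed in either direction. The number higher by p alone was 6 or 7 when any one shCtrl sample was left out, and the number lower was 10 without the third shAC007128.1 sample. When libraries were scaled to the summed mitochondrial mRNAs, 6 were higher and 9 lower, with the median of all genes at -0.17. The median log2 fold change was 0.22 over the members and -0.02 over all genes tested.

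**Figure D2:**
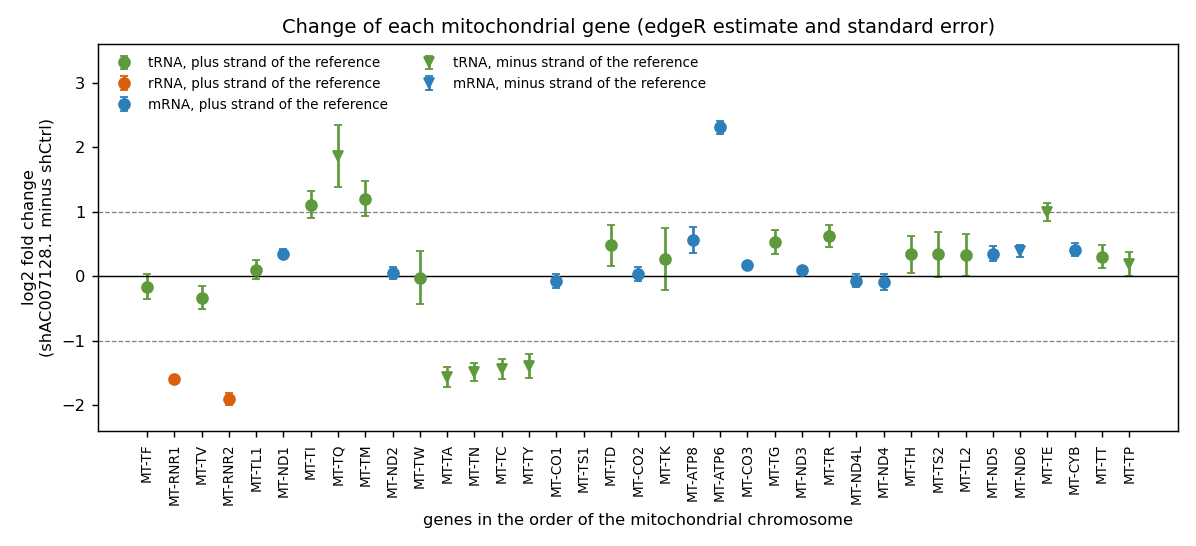
Log2 fold change (shAC007128.1 minus shCtrl, vertical axis) of each mitochondrial gene, in the order of the chromosome, with its standard error as a bar; colours mark rRNAs, mRNAs and tRNAs, and triangles mark genes on the minus strand. The 2 rRNAs and the block from MT-TA to MT-TY lie below the lower dashed line at -1, while MT-ATP6 at 2.31 and the block from MT-TI to MT-TM lie above the upper line at 1, and MT-TS1 has no point because it was not tested.

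MT-RNR1, the 12S rRNA of the small ribosomal subunit, had levels of 4892, 4785 and 4519 CPM in shCtrl and 1605, 1457 and 1621 CPM in shAC007128.1. Its log2 fold change was -1.6 (SE 0.06, adjusted p = 1.6e-05, edgeR). MT-RNR2, the 16S rRNA of the large subunit, had 22499, 21883 and 20537 CPM against 5580, 5188 and 6575 CPM. Its log2 fold change was -1.9 (SE 0.09, adjusted p = 2.3e-05). Every control lay far above every knockdown sample for both genes, and both falls were called under every alternative setting tried. MT-RNR2 fell somewhat further than MT-RNR1, since the ratio of their counts was 4.6, 4.57 and 4.54 in shCtrl and 3.48, 3.56 and 4.06 in shAC007128.1, without overlap (p = 0.1, exact permutation test, adjusted p = 0.144 over 13 ratios).

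Both rRNA genes lie on the plus strand, with MT-TF before them, MT-TV between them and MT-TL1 after them. None of these 3 tRNA genes passed the test. MT-TF, for phenylalanine, had a log2 fold change of -0.16, MT-TV, for valine, of -0.33, and MT-TL1, for leucine, of 0.10. MT-ND1, which follows MT-TL1, rose by 0.35 (SE 0.07, adjusted p = 0.00686). The level of MT-RNR2 per base of gene was 7.64 ± 0.19 (SD, n = 3) times that of MT-ND1 in shCtrl and 1.6 ± 0.0552 times in shAC007128.1. Reads of rRNA were filtered out by the authors before mapping, and the rRNA sequences used for it are not given in the sources used here. Counts of MT-RNR1 and MT-RNR2 are therefore of reads left after that step, and its part in the difference was not tested.

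MT-ATP6, a membrane subunit of ATP synthase that forms the path for protons, moved the other way. Its levels were 1702, 1530 and 1555 CPM in shCtrl and 7361, 7250 and 9077 CPM in shAC007128.1. The rise was 2.31 on the log2 scale (SE 0.10, adjusted p = 1.73e-05, edgeR), and the ratio of the group means was 4.95. MT-ATP8, the small subunit encoded on the same mRNA, had 774, 983 and 905 CPM against 1334, 938 and 1653 CPM, with a log2 fold change of 0.56 ± 0.20 (SE) and an adjusted p of 0.055. Its groups overlapped through the second shAC007128.1 sample, without which the adjusted p was 0.00815, and DESeq2 gave 0.0197.

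Compared per base of gene, MT-ATP6 stood below both neighbours in the control samples and above both in the knockdown samples. Its level over that of MT-ATP8 was 0.668, 0.473 and 0.522 in shCtrl and 1.68, 2.35 and 1.67 in shAC007128.1. Over MT-CO3, the mRNA that follows it and shares 1 base with it, the ratio was 0.315 ± 0.0149 (SD, n = 3) and 1.39 ± 0.12. Neither ratio overlapped between the groups (each p = 0.1, exact permutation test, adjusted p = 0.144), whereas MT-ATP8 over MT-CO3 did, at 0.578 ± 0.0745 and 0.755 ± 0.185. How the authors' counting divided reads in the 46 shared bases is not given in the sources used here.

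The nuclear genome holds copies of mitochondrial genes, and reads from near-identical stretches can be placed on either. Symbols of such pseudogenes matched 404 genes, of which 74 had a count and 12 were tested. None was called or past p alone by edgeR, DESeq2 or limma-voom, and 0 had an unadjusted p under 0.05 by edgeR. The 3 most abundant, MTATP6P1, MTND2P28 and MTCO1P12, all within one stretch of chromosome 1, held 99.5% of the pseudogene counts. MTND4P12 and MTND5P11, on chromosome 5, came next, at 3.25 and 1.24 CPM in shCtrl and 2.33 and 1.86 CPM in shAC007128.1.

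MTATP6P1 (chr1:633696-634376, hg38) differs from MT-ATP6 by 10 of 681 bases, and 11.9% of the 100-base windows of MT-ATP6 occur in it without a mismatch. Its levels were 948, 926 and 921 CPM in shCtrl and 205, 1156 and 1529 CPM in shAC007128.1. The first knockdown sample was thus far below the rest, and the others were above all controls. Without that first sample MTATP6P1 passed the adjusted p as higher, and without the second shAC007128.1 sample MTCO1P28, a pseudogene chosen after its values were seen, was called lower. MTATP6P1 took 35.8%, 37.7% and 37.2% of the counts of the pair in shCtrl, but 2.7%, 13.8% and 14.4% in shAC007128.1. With the pair summed, the rise was 1.81 on the log2 scale (SE 0.12, adjusted p = 6.24e-05), so MT-ATP6 was called with or without its copy, at a smaller size. MT-ND2 and MT-CO1, have copies that are 98.4% and 98.7% identical over the aligned bases. MTND2P28 took 10.7% to 11.0% of its pair in shCtrl and 10.8% to 11.1% in shAC007128.1, and MTCO1P12 took 1.08% to 1.16% and 1.09% to 1.38%.

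The 7 mRNAs for complex I, the NADH dehydrogenase, encode subunits of its membrane arm. Of these, MT-ND1, MT-ND5 and MT-ND6 rose by adjusted p and the other 4 did not pass the test. MT-ND1 had 1766, 1748 and 1694 CPM in shCtrl and 2138, 2051 and 2427 CPM in shAC007128.1, with no overlap. MT-ND5 had 2618, 2571 and 2382 CPM against 2972, 2820 and 3861 CPM (log2 fold change 0.35, SE 0.12, adjusted p = 0.0471). MT-ND6 had 749, 692 and 685 CPM against 948, 819 and 1020 CPM (0.39, SE 0.09, adjusted p = 0.011). MT-ND1 and MT-ND6 passed the adjusted p in 16 of 17 alternatives, but MT-ND5 in only 5, with adjusted p up to 0.147 and no pass when any one shCtrl sample was left out.

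MT-ND6 is the only mRNA gene on the minus strand, where it lies beside the 3′ end of MT-ND5. The ratio of both levels per base was 0.97 ± 0.0355 (SD, n = 3) in shCtrl and 1.01 ± 0.0943 in shAC007128.1, and the groups overlapped. The strand setting of the counting is not given in the sources used here, so reads of MT-ND6 cannot be told apart from RNA of the opposite strand. MT-ND2, MT-ND3, MT-ND4L and MT-ND4 had log2 fold changes between -0.09 and 0.10. MT-ND4L and MT-ND4, which share 7 bases and one mRNA, had a ratio per base of 1.2 ± 0.0259 in shCtrl and 1.18 ± 0.0493 in shAC007128.1, with overlap.

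MT-CYB, the cytochrome b of complex III, had 4512, 4470 and 4309 CPM in shCtrl and 5359, 5353 and 7008 CPM in shAC007128.1. It rose by 0.41 (SE 0.10, adjusted p = 0.0168, edgeR), and every knockdown sample was above every control. The 3 mRNAs for complex IV, cytochrome c oxidase, form its catalytic core and changed less. MT-CO1 had 24354, 24284 and 21888 CPM against 20259, 19891 and 26365 CPM, with a log2 fold change of -0.08 (SE 0.11, adjusted p = 0.575). MT-CO2 had a log2 fold change of 0.03 (SE 0.11), which turned negative under 6 of the alternatives. MT-CO3 had 5942, 5871 and 5655 CPM against 6320, 6439 and 6861 CPM, and a log2 fold change of 0.17 (SE 0.05, adjusted p = 0.0248). MT-CYB passed in 14 of 17 alternatives and MT-CO3 in 8, not with DESeq2 or without any one shCtrl sample, and with adjusted p up to 0.893 under the mitochondrial mRNA scaling.

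All 13 mRNAs had their highest level of the 6 samples in the third shAC007128.1 sample. The spread between replicates was wider in the knockdown group, with a median coefficient of variation of 3.66% over the mRNAs in shCtrl and 14.8% in shAC007128.1. Over the 203 genes tested with a mean of at least 500 CPM, it was 2.89% and 8.28%, and over all 19254 genes 10.4% and 16.8%. Without the third shAC007128.1 sample, the difference in the share of the 13 mRNAs turned from 0.456 to -0.168 percentage points. The other knockdown samples lay below every control for MT-CO1, MT-CO2, MT-ND2, MT-ND4 and MT-ND4L, and above every control for MT-ATP6, MT-ND1, MT-CO3, MT-CYB, MT-ND3, MT-ND5 and MT-ND6. The third sample had 60158244 counts, the most of its group, and its TMM scaling factor of 0.9668 was the lowest of the 6.

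**Figure D3:**
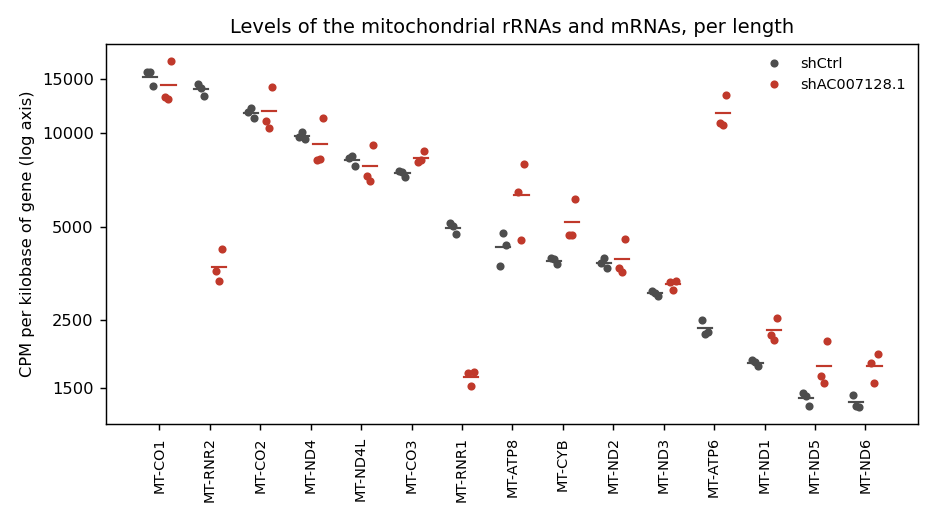
Level of the 2 rRNAs and 13 mRNAs per kilobase of gene (CPM per kilobase, log axis), one point per sample with the group mean as a line, ordered by the mean in shCtrl. MT-RNR2 and MT-RNR1 fall out of the order in shAC007128.1 while MT-ATP6 rises to the level of MT-CO2, and the third shAC007128.1 sample is the highest point for each mRNA.

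Levels between genes can be compared per kilobase of gene. Among the 13 mRNAs and 2 rRNAs, the order in shCtrl was led by MT-CO1 with 15246 ± 910 CPM per kilobase (SD, n = 3), MT-RNR2 with 13881 ± 644, MT-CO2 with 11639 ± 426 and MT-ND4 with 9805 ± 286. The first of these could not be separated from the next, since their ranges overlapped, and neither could the neighbours from MT-RNR1 through MT-ATP8 and MT-CYB to MT-ND2 in the middle of the order. MT-ND1, MT-ND5 and MT-ND6 closed it, with 1816 ± 39.5, 1393 ± 69 and 1350 ± 67, the last pair overlapping.

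In shAC007128.1 MT-CO1 led again with 14379 ± 2358 CPM per kilobase, but MT-CO2, MT-ATP6 and MT-ND4 followed with overlapping ranges, at 11844 ± 2006, 11595 ± 1504 and 9232 ± 1730. MT-RNR2 came at position 10 with 3708 ± 459 and MT-RNR1 last of these 15 with 1636 ± 94.8, overlapping MT-ND6 at 1770 ± 194. By mean CPM over all 6 samples, MT-CO1 was the most abundant of the 19254 genes tested, while most of the tRNA genes ranked far down.

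Among the tRNA genes, MT-TA, MT-TN, MT-TC and MT-TY fell together. MT-TN had 319, 311 and 300 CPM in shCtrl and 130, 114 and 86.4 CPM in shAC007128.1, a log2 fold change of -1.49 (SE 0.14, adjusted p = 0.000265, edgeR). MT-TC had 292, 283 and 278 CPM against 127, 107 and 80.3 CPM (-1.44, SE 0.16). MT-TA had 140, 134 and 134 CPM against 53.2, 50.6 and 35.1 CPM (-1.56, SE 0.15). For all of them the groups were far apart.

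MT-TY completed the block with 155, 148 and 147 CPM against 69.3, 60.7 and 41.6 CPM (-1.39, SE 0.18, adjusted p = 0.000831). The third shAC007128.1 sample, in which the mRNAs were highest, was the lowest for each of these genes. The proportions within the block changed little next to the fall. MT-TN over MT-TC was 1.09 ± 0.0104 (SD, n = 3) in shCtrl and 1.06 ± 0.0275 in shAC007128.1, and MT-TA over MT-TY 0.908 ± 0.00784 and 0.814 ± 0.0411, each lower without overlap (p = 0.1, exact permutation test, adjusted p = 0.144).

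The block stood apart from the other tRNA genes in level as well. In shCtrl its genes had 1973 to 4310 CPM per kilobase on average, within the range of the mRNAs, whereas the highest of the other 18 tRNA genes, MT-TL1, had 189 ± 12.3. Together the block held 0.0917%, 0.0897% and 0.0895% of all counts in shCtrl and 0.0368%, 0.0328% and 0.0235% in shAC007128.1. The other 18 tRNA genes held 0.00602%, 0.00598% and 0.00575% against 0.00723%, 0.00729% and 0.00788%, which was higher without overlap. The block also fell relative to the mRNAs on both sides, as MT-TN over MT-ND2 per base was 1.12 ± 0.0363 in shCtrl and 0.395 ± 0.12 in shAC007128.1, and MT-TN over MT-CO1 0.279 ± 0.00958 and 0.109 ± 0.035. Without the strand of the reads, RNA of the tRNA genes printed above and RNA that crosses them from the opposite strand cannot be told apart, and genes of 59 to 75 bases are shorter than the usual fragment of such libraries.

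The other block that changed was MT-TI, MT-TQ and MT-TM, for isoleucine, glutamine and methionine, between MT-ND1 and MT-ND2. MT-TI had 78, 106 and 85 counts in shCtrl and 148, 124 and 173 in shAC007128.1, which gave 1.07, 1.32 and 1.25 CPM against 2.63, 2.26 and 2.98 CPM (log2 fold change 1.11, SE 0.21, adjusted p = 0.00519, edgeR). MT-TM had 40, 66 and 42 counts against 90, 72 and 97 (1.2, SE 0.27, adjusted p = 0.0102). MT-TQ had only 12, 7 and 13 counts against 31, 24 and 36 (1.86, SE 0.48, adjusted p = 0.0185). No CPM value overlapped between the groups for these genes, but the call of MT-TQ was lost without shCtrl sample 1 or 2 or shAC007128.1 sample 1 or 3, with adjusted p between 0.0524 and 0.0617.

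MT-TE, for glutamate, is on the minus strand beside MT-ND6. It had 8.1, 9.2 and 7.49 CPM in shCtrl and 15.7, 15.2 and 18.6 CPM in shAC007128.1, with a log2 fold change of 1.0 (SE 0.14, adjusted p = 0.00136) that was just under the limit of 1 before rounding. MT-TG, for glycine, had a log2 fold change of 0.53 (SE 0.18, adjusted p = 0.0464) and MT-TR, for arginine, of 0.63 (SE 0.17, adjusted p = 0.0215). MT-TE passed the adjusted p in all 17 alternatives, MT-TR in 11 and MT-TG in 6, with adjusted p up to 0.101 for MT-TR and 0.145 for MT-TG. MT-TG and MT-TR lie on either side of MT-ND3, whose log2 fold change was 0.10.

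The remaining 11 tRNA genes tested did not pass. MT-TH, MT-TS2 and MT-TL2, for histidine, serine and leucine, lie side by side between MT-ND4 and MT-ND5, and had log2 fold changes of 0.34, 0.34 and 0.33. In each, the first 2 shAC007128.1 samples were above all controls and the third was below them, as in MT-TH with 4.61, 4.99 and 2.36 CPM against 2.83 to 3.35 CPM. MT-TK, for lysine, had the same order, with 1.21, 0.947 and 0.31 CPM in shAC007128.1 and 0.67, 0.671 and 0.722 CPM in shCtrl. MT-TD, MT-TT, MT-TP and MT-TW, for aspartate, threonine, proline and tryptophan, had log2 fold changes from -0.02 to 0.48.

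**Figure D4:**
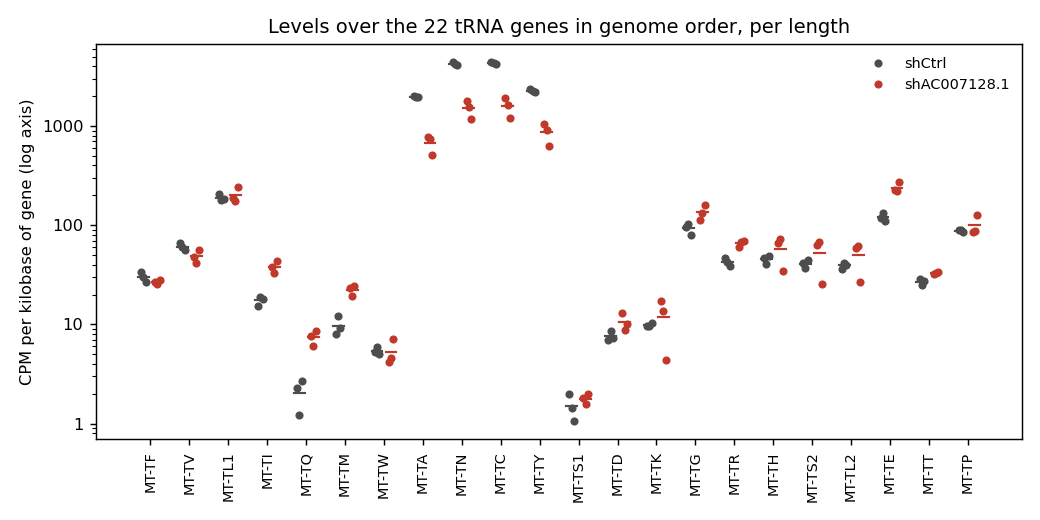
Level over each of the 22 tRNA genes per kilobase of gene (CPM per kilobase, log axis), in the order of the chromosome, one point per sample with the group mean as a line. MT-TA, MT-TN, MT-TC and MT-TY stand above all other tRNA genes in both groups and are lower in shAC007128.1, while MT-TI, MT-TQ, MT-TM and MT-TE are higher.

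As shares of the mitochondrial counts, which do not depend on nuclear RNA, 22 of the 37 genes were higher in every shAC007128.1 sample than in every control, 7 were lower and 8 overlapped. These shares add up to a fixed total, so the fall of the rRNAs from 27.1% to 8.54% by itself raises the shares of the other genes. Each of the 29 had p = 0.1 by the exact permutation test and 0.128 after adjustment over the 37, the smallest this design allows. By CPM, the groups did not overlap for 21 of the 36 members tested, 15 higher and 6 lower (41.7% and 16.7%), where 55.2% of all genes tested did not overlap, 27% higher and 28.2% lower. MT-RNR2 went from 22.2% ± 0.324 (SD, n = 3) of the mitochondrial counts to 6.71% ± 0.213, and MT-RNR1 from 4.86% ± 0.0522 to 1.83% ± 0.197. MT-ATP6 went from 1.64% ± 0.0903 to 9.16% ± 0.136 and the other 12 mRNAs together from 70.3% ± 0.461 to 81.8% ± 0.61. Of all counts, however, these 12 mRNAs held 7.03% ± 0.193 and 6.88% ± 0.989, with overlap (p = 1.0, exact permutation test). MT-CYB went from 4.55% ± 0.0733 to 6.84% ± 0.148 and MT-CO1 from 24.1% ± 0.514 to 25.7% ± 0.506. The edgeR log2 fold changes of these genes were 0.41 and -0.08. With the counts of the 13 mRNAs as the denominator, 5 of the 13 were higher without overlap. On that measure MT-CO1, MT-CO2, MT-ND2, MT-ND4 and MT-ND4L were lower without overlap. Shares of the mRNA counts add up to a fixed total as well, so the rise of MT-ATP6 by itself lowers the shares of the other mRNAs.

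Mitochondrial DNA is copied, transcribed and its RNA processed by proteins from nuclear genes. Of 71 such genes listed, 70 were tested, and 4 were called, all of them higher (5.71%, against 5.57% of all genes). By adjusted p alone 16 were higher and 8 lower, or 22.9% and 11.4%, which is near or below the shares of all genes. With library size as the scaling, the split was 14 and 14. Without the third shCtrl sample 2 were called, and without shCtrl sample 2 or 3 the number lower by adjusted p was 4 or 5. The median log2 fold change of the list was 0.05.

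Among the 7 genes of transcription, TEFM, the elongation factor, rose by 0.72 (SE 0.12, adjusted p = 0.00271) and MTERF3, a repressor of transcription initiation, by 0.55 (SE 0.15, adjusted p = 0.0222). The polymerase POLRMT and the factor TFAM, named outside the rule after their values were seen, had log2 fold changes of -0.07 and 0.05. MTERF1, known to bind within the MT-TL1 sequence printed above, was also chosen afterwards and had -0.44 (SE 0.16), which did not pass. Of the 12 genes of replication and maintenance, DNA2, a nuclease and helicase, was called with 16.3, 16.3 and 18.1 CPM in shCtrl and 55.1, 54.0 and 68.2 CPM in shAC007128.1 (1.80, SE 0.12, adjusted p = 6.39e-05). POLG2, the accessory subunit of the mitochondrial DNA polymerase, fell by 0.58 on the log2 scale (SE 0.09, adjusted p = 0.00274).

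Of the 22 genes of RNA processing and stability, 6 rose by adjusted p (27.3%, against 21% of all genes). Of the 22, 2 were called higher (9.09%, against 5.57%). HSD17B10 and PRORP are both subunits of the RNase P that cuts the 5′ ends of mitochondrial tRNAs. HSD17B10 had 50.9, 49.4 and 55.5 CPM in shCtrl and 138, 128 and 91.4 CPM in shAC007128.1 (1.2, SE 0.15, adjusted p = 0.000921). PRORP, the nuclease, had 21.1, 27.0 and 18.1 CPM against 38.6, 39.6 and 61.2 CPM (1.07, SE 0.22, adjusted p = 0.00731). Neither overlapped between the groups. TRMT10C, the other subunit of that enzyme, named after its values were seen, did not pass, with a log2 fold change of 0.09 (SE 0.09, adjusted p = 0.462). REXO2, an exonuclease that degrades short RNAs, was not called and rose by 0.73 (SE 0.09).

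Of the 10 genes of rRNA modification and ribosome assembly, 3 rose and 1 fell by adjusted p. These are 30.0% and 10.0%, against 21% and 19.8% of all genes. MRM3, a methyltransferase of the 16S rRNA, was called, with 15.6, 15.7 and 13.2 CPM in shCtrl and 35.7, 30.5 and 23.7 CPM in shAC007128.1 (1.01, SE 0.17, adjusted p = 0.00263). PTCD3, a small-subunit protein, rose by 0.50 (SE 0.10). Of the 13 translation factors, 1 rose and 4 fell (7.69% and 30.8%). Those that fell include OXA1L, the insertase for newly made membrane proteins, and the release factor MTRF1L, both by 0.39 on the log2 scale (SE 0.07 and 0.09). Of the 6 tested regulators of mitochondrial biogenesis, 2 rose (33.3%), PPARGC1B by 0.53 (SE 0.09) and NRF1 by 0.38 (SE 0.12).

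The 13 mitochondrial proteins assemble with nuclear partners in complexes I, III, IV and V. Of 75 nuclear subunits tested, 38 rose and 4 fell by adjusted p, which is 50.7% and 5.33% where 21% and 19.8% of all genes did. The median log2 fold change was 0.34. The 4 called were higher, or 5.33% against 5.57% of all genes, so most changes were below 2-fold. The number that fell was 1 or 2 without any one shCtrl sample or the second shAC007128.1 sample, and without the first shAC007128.1 sample 2 were called higher and 2 lower.

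In complex I, 17 of 37 rose and 4 fell by adjusted p (45.9% and 10.8%, against 21% and 19.8% of all genes). NDUFB2 and NDUFA8 were called higher (5.41%, against 5.57%), with 1.12 (SE 0.10) and 1.01 (SE 0.15), while NDUFA9 rose by 0.92 (SE 0.08). The 4 that fell, named after their values were seen, were NDUFS4, NDUFS7, NDUFV1 and NDUFV3, which belong to the peripheral arm and fell by 0.62, 0.50, 0.47 and 0.81 on the log2 scale. In complex III 4 of 9 rose (44.4%, against 21% of all genes), among them UQCRQ by 0.70 (SE 0.08) and UQCRFS1, the iron-sulfur protein, by 0.27 (SE 0.07). In complex IV 6 of 11 rose (54.5%, against 21%), with NDUFA4 at 0.95 (SE 0.06) and COX7B at 0.72 (SE 0.09).

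In complex V 11 of 18 rose by adjusted p (61.1%, against 21% of all genes). Of the 18, 2 were called higher (11.1%, against 5.57%), ATP5MC3 and ATP5MC1, which both encode the c subunit of the rotor ring. ATP5MC3 had 68, 67.1 and 61.5 CPM in shCtrl and 188, 164 and 148 CPM in shAC007128.1 (1.35, SE 0.10, adjusted p = 0.000109). ATP5MC1 had 28.3, 26.9 and 29.6 CPM against 69.0, 65.1 and 47.8 CPM (1.10, SE 0.14, adjusted p = 0.000982). Neither overlapped between the groups. ATP5MC2, the other gene for this subunit, named after its values were seen, had 113, 104 and 66.4 CPM against 101, 105 and 86.3 CPM (0.04, SE 0.19, adjusted p = 0.884). ATP5PF, of the peripheral stalk, rose by 0.67 (SE 0.07).

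**Figure D5:**
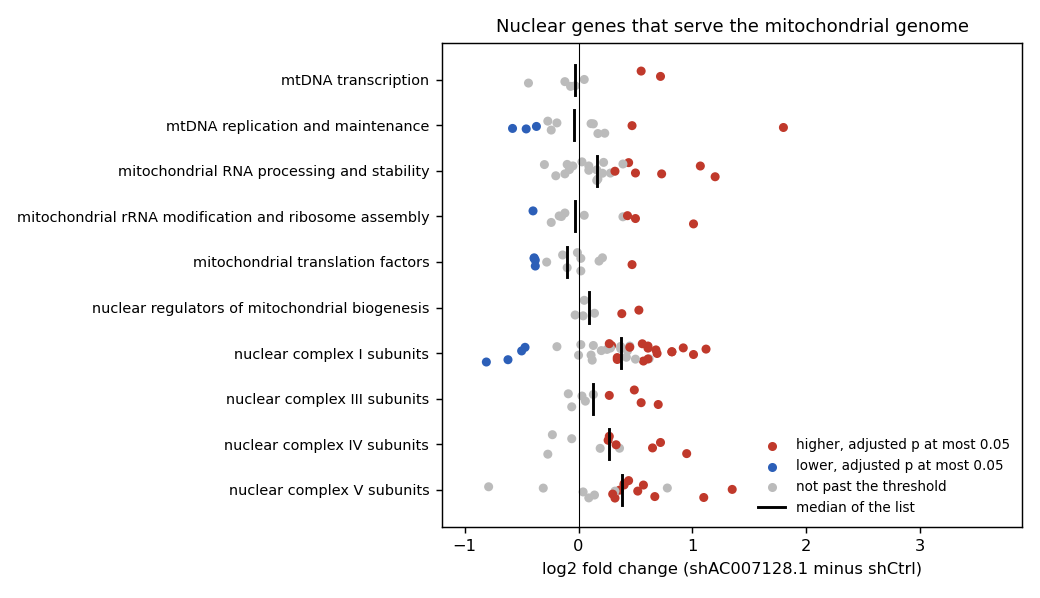
Log2 fold change (shAC007128.1 minus shCtrl, horizontal axis) of the nuclear genes that serve the mitochondrial genome, one point per gene in 10 lists, with the median of each list as a black line; red and blue mark genes past the adjusted p. The medians of the lists for complexes I, IV and V lie at 0.37, 0.27 and 0.38, while those for transcription, replication and translation lie between -0.10 and -0.03.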

How the data were processed

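RNA-seq of 3 shCtrl and 3 shAC007128.1 samples of KYSE150 was analysed. Per the study's methods, the authors sequenced paired-end TruSeq poly-A libraries, discarded rRNA reads, and aligned what was left to hg38 (TopHat). The submitters' processing notes name TopHat2 2.0.6, CASAVA 1.8 and the builds GRCh38 and mm10. The authors deposited one table of estimated counts per Ensembl gene, already whole numbers, whose low values pile up at multiples of 4 (1355 genes with 4 counts and 761 with 3 in the first shCtrl sample). The counting program, its annotation and its strand setting are not given in the sources used here. Of 67140 identifiers, 60357 (89.9%) were in GENCODE release 44, which gave symbols, positions and lengths.

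Genes were tested over the whole table with edgeR 4.0.16 in R 4.3.3 (filterByExpr, TMM, quasi-likelihood F-test, Benjamini-Hochberg over 19254 genes), and called where the adjusted p did not exceed 0.05 and the change reached 2-fold, as in the published methods. CPM values use the TMM-scaled library sizes (factors 0.9668 to 1.042), and CPM per kilobase divides by gene length in GENCODE. Shares and ratios were compared by two-sided exact permutation tests in scipy 1.17.1. The scripts were tested on simulated data. Groups came from the sample titles, since the labels' treatment text names shAC007128.1 for every sample.

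The members and the nuclear lists were chosen with earlier results of these data known. All mitochondrial genes were named. From each nuclear list the genes called and the 2 with the smallest p were named, and of the pseudogenes the 5 most abundant. Alternatives were DESeq2 1.42.0, limma-voom 3.58.1, other scalings and filters, counts divided by 4, a replicate block, each sample left out and, chosen after seeing the data, counts summed with chromosome 1 pseudogenes and scaling to the mitochondrial mRNAs. Depth was 55764405 to 78610457 counts per sample, and values of genes with few counts, such as MT-TQ, have wide errors.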

Additional observations from a re-analysis of the deposited data

How the results depend on the processing

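The 6 calls of lower members held in number under all 17 alternatives, and 3 to 5 members were called higher. MT-ATP6 kept log2 fold changes of 1.81 to 2.37, MT-RNR2 of -2.06 to -1.83 and MT-RNR1 of -1.75 to -1.55. Scaling to the mitochondrial mRNAs put 6 members higher by adjusted p instead of 12, and MT-TI at 0.95. Leaving out one sample gave 6 to 13 higher and 6 to 10 lower. For nuclear genes of mitochondrial DNA expression it gave 2 to 4 called higher and 4 to 12 lower by adjusted p, and scaling by library size only gave 14. For respiratory chain subunits it gave 2 to 5 called higher, 0 to 2 called lower and 1 to 5 lower by adjusted p, and for pseudogenes 0 to 1 called lower and 0 to 1 higher and 0 to 1 lower by adjusted p. Genes near no change crossed zero. MT-CO2 was at -0.05 with library size only, -0.02 unfiltered, -0.01 where every sample needed 10 counts and -0.14 with the mitochondrial mRNA scaling, MT-ND2 at -0.03 with library size only and -0.12 with that scaling, which also put MT-TL1 at -0.07 and MT-ND3 at -0.05. Leaving out one sample gave -0.13 to 0.11 for MT-CO2, -0.08 to 0.12 for MT-ND2, -0.06 to 0.19 for MT-TL1, -0.30 to 0.12 for MT-TW, -0.14 to 0.64 for MT-TK, -0.20 to 0.01 for MT-ND4L and -0.03 to 0.28 for MT-TP. MT-TE passed the fold limit in 3 such runs. MT-TQ could not be tested with counts divided by 4 or where every sample needed 10 counts. With the counts of the 2 rRNA genes taken out of both the members and the library totals, the difference in the mitochondrial share turned from -1.59 to 0.252 percentage points. As a share of all counts, the 2 rRNAs differed by -1.99 points. The difference in the share of the 13 mRNAs was -0.168 to 0.786 with one sample left out. With mitochondrial mRNA counts as denominator 5 genes of 13 were higher without overlap, while MT-CO1, MT-CO2, MT-ND2, MT-ND4 and MT-ND4L were lower. On that fixed total, the rise of MT-ATP6 by itself lowers the shares of the others. The causes of the changes in the members were not tested.

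Same-numbered samples did not deviate together (correlations 0.045, -0.0498 and -0.0555), so the numbers were not taken as pairs. With the replicate block, 4 members were called higher and 6 lower, and 8 were higher and 6 lower by adjusted p.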
